A study of Mus musculus with 6 samples.

Results

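The 40 genes described here act in mitosis, the stage at which a dividing cell condenses its duplicated chromosomes, attaches them to a microtubule spindle, pulls them apart and splits. They were chosen by name. A gene was measured if at least 1 probe set of the array carries its symbol and no other, and the probe set with the highest mean log2 signal over the 6 arrays stood for it. That left 39 of the 40 genes, out of 18193 genes named this way on the array, and Ccnb1, which encodes cyclin B1, was not analysed here. Of the 39, 38 passed the filter on dim probe sets and were tested. Kif15 did not pass it.

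The RNA came from CD4+ T cells (helper T lymphocytes) of mouse spleen and lymph nodes that had been kept in culture. There were 3 groups of 2 arrays each. The groups are labelled Control, RA (the title of the series names retinoic acid, a vitamin A metabolite) and Ro, which the labels do not expand. The labels used here give no strain, age, genotype, dose or duration, except that the label of Control replicate 2 gives a culture protocol of 5 days. It lists human IL-2 (100 U/ml), human TGF-b1 (5 ng/ml), and mouse IL-6 (20 ng/ml), IL-1b (10 ng/ml), IL-23 (10 ng/ml), IL-21 (10 ng/ml) and TNF-a (20 ng/ml), with antibodies against IL-4 (10 ng/ml) and IFN-gamma (10 ug/ml). For the other 5 arrays the labels used here carry no such protocol.

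Mitotic genes are transcribed in a wave late in the cell cycle. In resting cells the DREAM complex holds many of them silent, and in cycling cells the MuvB core of that complex joins B-MYB and FOXM1 and turns the same genes on. Their promoters are known for the cell cycle homology region, a short element bound by MuvB, and for CCAAT boxes, bound by the factor NF-Y. Naive T cells are quiescent and enter a run of rapid divisions after activation, so that in bulk RNA of a T cell culture these transcripts follow the fraction of cells in G2 and mitosis. On such arrays fewer cells in mitosis and less mitotic RNA per cell cannot be told apart.

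Promoter windows were available for 33 of the 39 measured genes. Entries for Foxm1, Ccna2, Aurkb, Pbk, Tpx2 and Kif20a were missing. Each window runs from 250 bases before the annotated start of the gene to 50 bases after it (RefSeq, GRCm38.p6), and some genes have more than 1, which gave 35 windows. They were searched for the cell cycle homology letters TTTGAA and TTCGAA and for CCAAT, on both strands. TTCGAA reads the same on both strands, and TTCAAA and ATTGG are the reverse forms of the other motifs. A homology region match lay in 28 of the 35 windows (80.0%), against 19.2% of all 32851 windows in the table. CCAAT lay in 26 of 35 (74.3%), against 37.4% of all windows. Both were present in 24 of 35 (68.6%), which belong to 22 genes, against 7.53% of all windows.

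The 6 windows that follow are those with both motifs from the genes with the highest mean log2 signal. They are examples picked for having both, as 22 of the 33 genes searched did. The other 11 had 1 motif or none. Each is printed on the strand of the gene, from 250 bases before the start to 30 bases after it, with matches in capitals. Top2a lies at chr11:99024160-99024439 on the minus strand, Ube2c at chr2:164769679-164769958 on the plus strand, and Mki67 at chr7:135716350-135716629 on the minus strand. Cdc20 lies at chr4:118437314-118437593 on the minus strand, Cenpa at chr5:30666636-30666915 on the plus strand, and Cdca8 at chr4:124936888-124937167 on the minus strand.
Top2a: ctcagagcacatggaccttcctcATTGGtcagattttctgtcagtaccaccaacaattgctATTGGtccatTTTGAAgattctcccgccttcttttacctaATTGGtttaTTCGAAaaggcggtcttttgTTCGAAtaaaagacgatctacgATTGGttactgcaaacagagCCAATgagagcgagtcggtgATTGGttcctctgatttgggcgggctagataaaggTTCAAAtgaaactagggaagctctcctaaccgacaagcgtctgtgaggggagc
Ube2c: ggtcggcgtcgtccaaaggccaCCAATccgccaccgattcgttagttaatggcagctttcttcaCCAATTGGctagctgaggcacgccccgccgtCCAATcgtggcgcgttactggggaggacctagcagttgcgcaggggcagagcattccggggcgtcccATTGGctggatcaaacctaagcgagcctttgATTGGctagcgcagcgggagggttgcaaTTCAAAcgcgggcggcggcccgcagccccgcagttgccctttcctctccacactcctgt
Mki67: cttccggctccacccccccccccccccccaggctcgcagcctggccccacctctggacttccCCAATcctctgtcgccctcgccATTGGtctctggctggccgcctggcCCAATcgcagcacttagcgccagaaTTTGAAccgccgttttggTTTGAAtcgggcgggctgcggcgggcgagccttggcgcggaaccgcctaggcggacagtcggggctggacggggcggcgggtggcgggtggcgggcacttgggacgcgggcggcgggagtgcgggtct
Cdc20: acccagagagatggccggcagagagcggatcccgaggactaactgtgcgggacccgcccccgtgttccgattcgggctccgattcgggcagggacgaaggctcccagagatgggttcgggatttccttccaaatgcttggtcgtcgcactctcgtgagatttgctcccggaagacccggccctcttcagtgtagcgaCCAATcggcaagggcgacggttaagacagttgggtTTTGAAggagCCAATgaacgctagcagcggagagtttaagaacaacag
Cenpa: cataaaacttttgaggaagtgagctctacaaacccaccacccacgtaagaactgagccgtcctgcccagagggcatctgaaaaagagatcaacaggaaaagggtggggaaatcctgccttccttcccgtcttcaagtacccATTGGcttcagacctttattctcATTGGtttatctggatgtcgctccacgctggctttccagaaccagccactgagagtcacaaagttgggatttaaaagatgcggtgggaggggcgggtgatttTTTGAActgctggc
Cdca8: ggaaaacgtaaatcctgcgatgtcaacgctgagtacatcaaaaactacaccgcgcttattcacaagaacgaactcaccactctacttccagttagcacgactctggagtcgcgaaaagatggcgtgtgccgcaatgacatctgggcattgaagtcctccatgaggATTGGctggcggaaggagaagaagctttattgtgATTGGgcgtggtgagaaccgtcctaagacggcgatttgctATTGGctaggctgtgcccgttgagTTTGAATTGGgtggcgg

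Top2a, the topoisomerase that untangles sister chromatids, held 4 homology region matches and 6 CCAAT matches, and the homology region nearest to its start began at position -23, counted from the start base as 0. In Cdc20, which activates the anaphase-promoting complex, TTTGAA began at position -18, with CCAAT on both sides. In Cdca8 the TTTGAA after the start shares its last base with an ATTGG, so the capitals run together there. In 16 of the 35 windows of these genes a CCAAT began 20 to 45 bases upstream of a homology region match, against 1.11% of all windows. That spacing was chosen after the matches had been seen. A match is a string of letters and was not tested for binding.

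The arrays themselves differed before any gene of interest was considered. Array medians ran from 16.3 to 23.8 signal units. Log2 values of Control replicate 2 correlated with those of the other arrays across probe sets at 0.911 to 0.917, and the other 5 correlated with each other at up to 0.972. Control replicate 2 had 0.972 units for the Y-linked gene Eif2s3y, which stood at 747 to 967 on the other arrays. The female-specific RNA Xist stood at 4326 on that array, at 680 on the other Control array and at 13.1 to 22.7 on the rest. Nothing in the labels makes the replicates separate cultures or animals. The 2 Control arrays, with Eif2s3y at 855 and 0.972, cannot be repeats of 1 RNA sample. A p-value here therefore reflects the spread between arrays alone, and within RA and Ro that spread may be technical. With 2 arrays in a group, precision is limited by their number. Every log2 value given here is the log2 of (signal + 3.00) minus the median of its array, and a signal is in the array's own units.

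The mitotic genes took nearly the same order of arrays, and that order crossed the groups. Of the 39 genes, 25 had the order Ro replicate 1, RA replicate 1, RA replicate 2, Control replicate 1, Ro replicate 2 and Control replicate 2 from high to low, an order shown by 1.57% of the 12958 genes tested. A further 12 had the same order with RA replicate 1 ahead of Ro replicate 1 (0.818% of genes tested). Kif15 and Kif22 were the other two. Relative to each gene's own mean over the 6 arrays, the median over the 39 genes was 1.34 log2 units on Ro replicate 1, 1.21 and 0.54 on RA replicates 1 and 2, -0.03 and -2.48 on the Control replicates and -0.45 on Ro replicate 2. Ro replicate 1 was the highest array for 25 of 39 genes, against 22.1% of all genes tested. Control replicate 2 was the lowest for 38 of 39, against 38.7%. The filter and this background cover tested genes, and Kif15 is not among them.

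**Figure D1:**
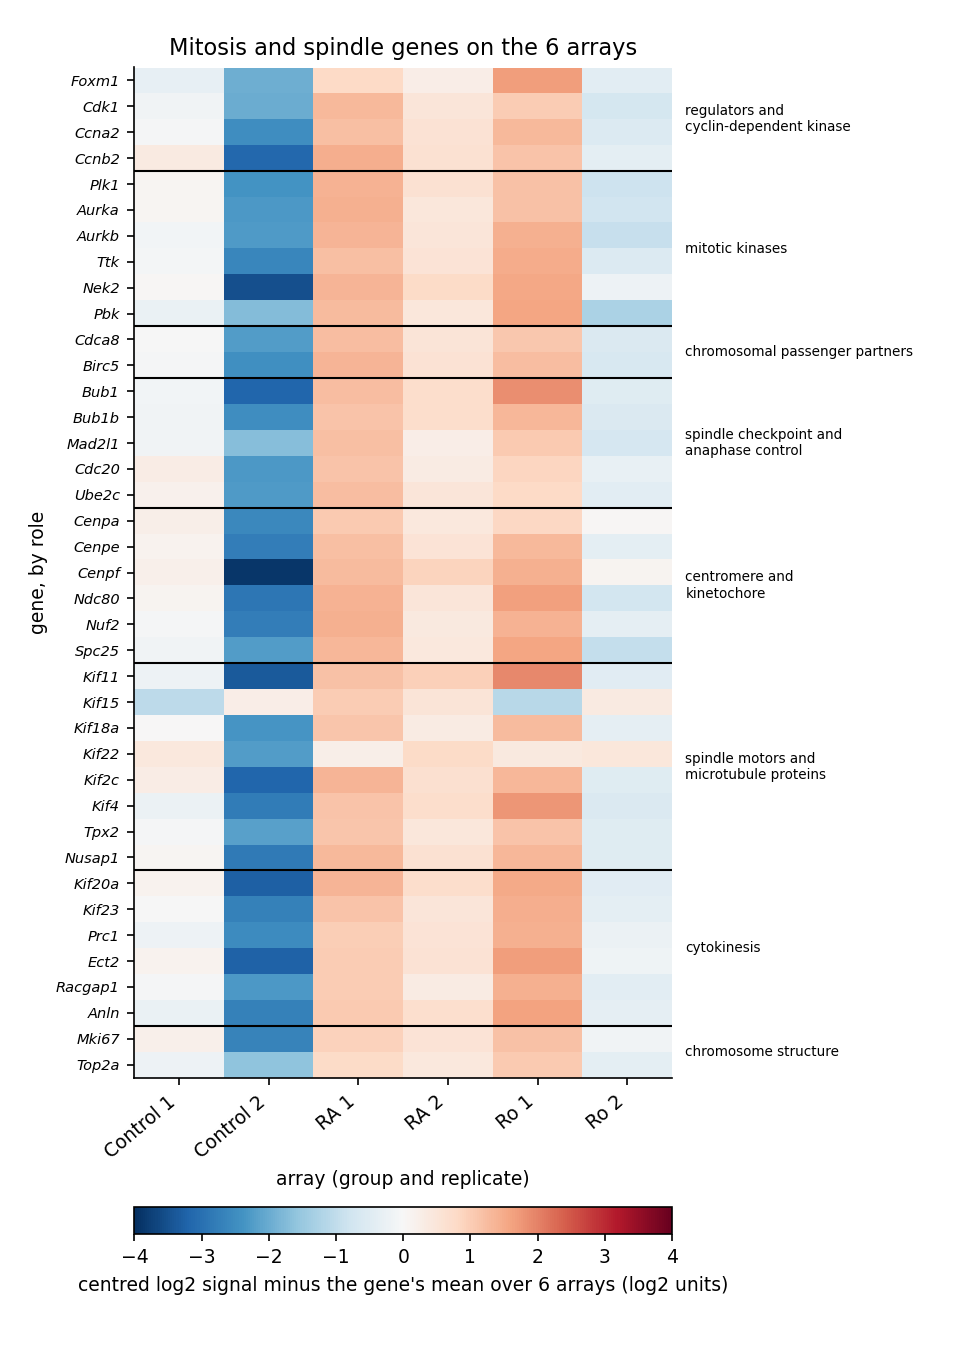
Heat map of the 39 measured genes (rows, by role) on the 6 arrays (columns). Colour is the centred log2 signal minus the gene's mean over the 6 arrays, in log2 units. Control 2 is the lowest array for 38 of 39 genes, and Ro 1 or RA 1 is the highest for 38, with Kif22 highest on RA 2.

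Among the regulators, Foxm1, the forkhead factor that drives late cell cycle transcription, gave 230 signal units on Control replicate 1 and 51.6 on replicate 2, then 389 and 308 on RA, and 800.5 and 198 on Ro. The RA arrays were both above the Control pair, and the Ro arrays lay on either side of the RA arrays. Cdk1, the kinase that starts mitosis, stood at 1296 and 259 on Control, 2694 and 1772 on RA, and 2484 and 806 on Ro. The mean for Control was 778 ± 733, for RA 2233 ± 652 and for Ro 1645 ± 1186 signal units (SD, n = 2 each). The cyclin partners of Cdk1 had the same picture. Ccnb2, cyclin B2, stood at 1841 and 113 on Control, 3003 and 1922 on RA, and 2711 and 999 on Ro. Ccna2, cyclin A2, stood at 1342 and 175, 2470 and 1834, and 2906 and 868 on the same arrays. In both genes Ro replicate 2 lay below Control replicate 1, and Control replicate 2 lay far below all others.

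Of the 8 roles, the 6 mitotic kinases had the widest median gap between the Ro arrays, 2.02 log2 units (a description with no test). Plk1, which acts in centrosome maturation, spindle assembly and cytokinesis, had signals of 687 and 85.9 on Control, 1303 and 874 on RA, and 1255 and 332 on Ro. Aurora kinase A (Aurka), which works at the spindle poles, had 664 and 89.9, 1305 and 767, and 1225 and 336. Aurora kinase B (Aurkb), the kinase of the chromosomal passenger complex, had 583 and 91.1, 1236 and 778, and 1454 and 303. In each of these kinases RA replicate 2 lay between the Ro arrays. Pbk, a kinase active in mitosis, differed most between the Ro arrays, at 1613 and 238, a log2 difference of 2.83. Nek2, a centrosome kinase, stood at 439 and 23.6 on the Control arrays, a log2 difference of 3.58, and Ttk, the checkpoint kinase also called Mps1, at 306 and 35.2. Aurora B's partners Birc5 (survivin) and Cdca8 (borealin) dropped from 1765 and 2124 on the first Control array to 240 and 323 on the second, and ranged from 1071 to 3868 across RA and Ro.

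Genes of the spindle checkpoint and of anaphase control followed. Bub1b, whose product BubR1 holds back anaphase until chromosomes are attached, had signals of 583 and 81.0 on Control, 1105 and 942 on RA, and 1414 and 396 on Ro. Bub1, its partner kinase, had 431 and 34.1 on Control, 847 and 669 on RA, and 1458 and 300 on Ro. Both had the order of arrays shared by most of the genes. Mad2l1, the checkpoint protein that binds Cdc20, stood at 913 and 220 on Control, 1797 and 1068 on RA, and 1779 and 570 on Ro. Cdc20 stood at 2875 and 341, 4036 and 2634, and 3658 and 1772, so that Control replicate 1 lay above RA replicate 2 in signal. With arrays centred on their medians that order turned, and RA replicate 2 was the higher. Ube2c, the enzyme that hands ubiquitin to targets of the anaphase-promoting complex, had 3241 and 433, 5243 and 3617, and 4343 and 1968.

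At the centromere and kinetochore, Cenpf, a large protein of the outer kinetochore, had the widest gap between the Control arrays, at 860 and 33.2 (log2 difference 4.10), with 1389 and 1221 on RA and 1699 and 728 on Ro. Its other probe sets, which were dimmer, gave Control gaps of 0.73 and 3.39 log2 units. Cenpa, the histone H3 variant that marks centromeres, had a gap between the Ro arrays of only 0.79 log2 units, at 3282 and 2019. On Control it stood at 2545 and 260, and on RA at 3459 and 2568. Thus Cenpa kept the common low value on Control replicate 2 and showed little of the difference within Ro. The kinesin Cenpe and the Ndc80 complex genes Ndc80, Nuf2 and Spc25, which couple kinetochores to microtubules, spanned 462 to 579 on the first Control array, 38.1 to 85.6 on the second and 232 to 382 on Ro replicate 2.

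Among the motors, Kif11, the kinesin that pushes spindle poles apart, had signals of 415 and 30.9 on Control, 837 and 830 on RA, and 1560 and 319 on Ro. The RA signals differed 1.01-fold and the Ro signals 4.89-fold, without centring. With arrays centred on their medians the log2 differences were 0.21 within RA and 2.37 within Ro. Kif4, a chromokinesin, stood at 252 and 28.7, 509 and 436, and 886 and 182. Kif2c, a microtubule depolymerase, stood at 840 and 52.8, 1384 and 963, and 1507 and 446. With arrays centred, Kif2c was slightly higher on RA replicate 1 (6.07) than on Ro replicate 1 (6.04). The spindle assembly genes Tpx2 and Nusap1, and Kif18a, which dampens chromosome movement, kept the common order, as Kif11 and Kif4 did.

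Kif15 and Kif22 were the 2 exceptions. Kif15, a motor that can back up Kif11, had signals of 1.86 and 5.71 on Control, 12.9 and 10.0 on RA, and 1.08 and 8.78 on Ro. Its single probe set was too dim to be tested and its order is not interpretable. Kif22, a chromokinesin, was represented by a probe set that stood at 1717 and 197 on Control, 1174 and 1944 on RA, and 1452 and 1612 on Ro. The suffix of its identifier marks it as one that may cross-hybridise. The other probe sets of Kif22 gave log2 differences between the Ro arrays of 1.98 and 1.95, against -0.06 for the brightest one. For Kif22 the choice of probe set therefore decides whether the gene keeps the common order. Of 38 other tested probe sets of these genes, 37 had Ro replicate 1 above Ro replicate 2 and 36 had Control replicate 1 above Control replicate 2.

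Of the roles, cytokinesis genes had the smallest median difference between RA and Ro means. Ect2, the exchange factor that activates RhoA at the cleavage site, had signals of 290 and 17.0 on Control, 410 and 347 on RA, and 728 and 211 on Ro. Prc1, which bundles microtubules of the central spindle, had 686 and 95.6, 1199 and 1015, and 1803 and 616. Anln, the scaffold anillin, had 243 and 29.6, 461 and 411, and 770 and 205. In all 3 both RA arrays lay between the Ro arrays. Kif20a and Kif23, the kinesins of the central spindle, and Racgap1, the partner of Kif23, had log2 differences between the Ro arrays of 1.96, 1.84 and 1.86. The median difference of RA minus Ro was 0.20 over the 6 cytokinesis genes and 0.67 over the 6 mitotic kinases, a gap that was not tested.

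Mki67, which encodes the proliferation marker Ki-67, a surfactant of mitotic chromosomes, stood at 3087 and 299 on Control, 3957 and 3504 on RA, and 5196 and 2222 on Ro. Top2a stood at 3039 and 821, 4599 and 4159, and 6268 and 2465. Both were measured on every array, and of the 38 genes with Control replicate 1 above Control replicate 2, Top2a had the smallest gap (log2 difference 1.41).

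The gap between replicates was wide in Control and Ro and narrower in RA. Replicate 1 was above replicate 2 for 38 of 39 genes in Control, 38 in RA and 37 in Ro, and the median differences were 2.48, 0.67 and 1.83 log2 units. Replicate 1 was more than 2-fold above replicate 2 for 38 genes in Control (14.1% of all genes tested), for 1, Nuf2, in RA (3.12%) and for 36 in Ro (8.91%). The replicate numbers are not stated to mark a shared culture, animal or day. Over all genes tested the median gap was between -0.02 and 0.04 in each group.

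**Figure D2:**
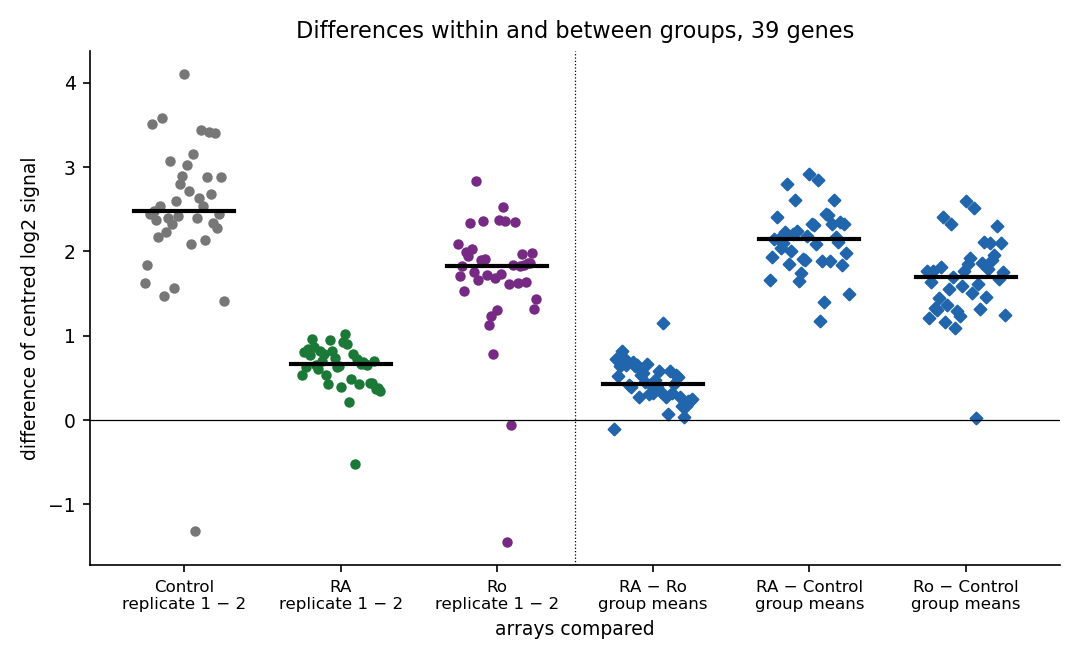
Differences of centred log2 signal for the 39 genes (1 point per gene, black bar at the median). On the left is replicate 1 minus replicate 2 within Control, RA and Ro, with medians of 2.48, 0.67 and 1.83. On the right are the differences of group means, with medians of 0.43, 2.14 and 1.70.

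Between RA and Ro, mean levels of 38 of 39 mitotic genes were higher in RA by value, with a median log2 difference of 0.43, against -0.14 over all genes tested, of which 34.3% were higher. Only Foxm1 was lower by value (-0.10). The difference rested on single arrays. Both RA arrays lay above both Ro arrays for 1 of 39 genes, the dim Kif15, against 8.46% of all genes tested. Without Ro replicate 2 the median turned to -0.43 and 3 of 39 genes (Kif15, Kif22 and Ube2c) were higher in RA. Without Ro replicate 1 it was 1.40 and all 39 were higher. Leaving out RA replicate 1 gave 0.11 and 31 genes, and leaving out RA replicate 2 gave 0.77.

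In the limma fit of all 6 arrays, 0 of the 38 tested genes and 0% of the 29531 probe sets tested passed an adjusted p of 0.05 between RA and Ro. At an unadjusted p under 0.05 there were 0 of the 38 and 2.03% of all probe sets. Limma log2 differences for the genes set by the naming rule were 0.72 (SE 0.75) for Cdk1, 0.66 (SE 0.93) for Aurkb, 0.54 (SE 0.86) for Bub1b, 0.45 (SE 0.83) for Cdc20, 0.25 (SE 0.60) for Top2a, 0.23 (SE 0.89) for Mki67 and -0.10 (SE 0.78) for Foxm1. Each had an adjusted p of 1.00. The highest difference, 1.15, belonged to Kif15, which was not tested. A p that misses the threshold does not show that the groups were alike.

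**Figure D3:**
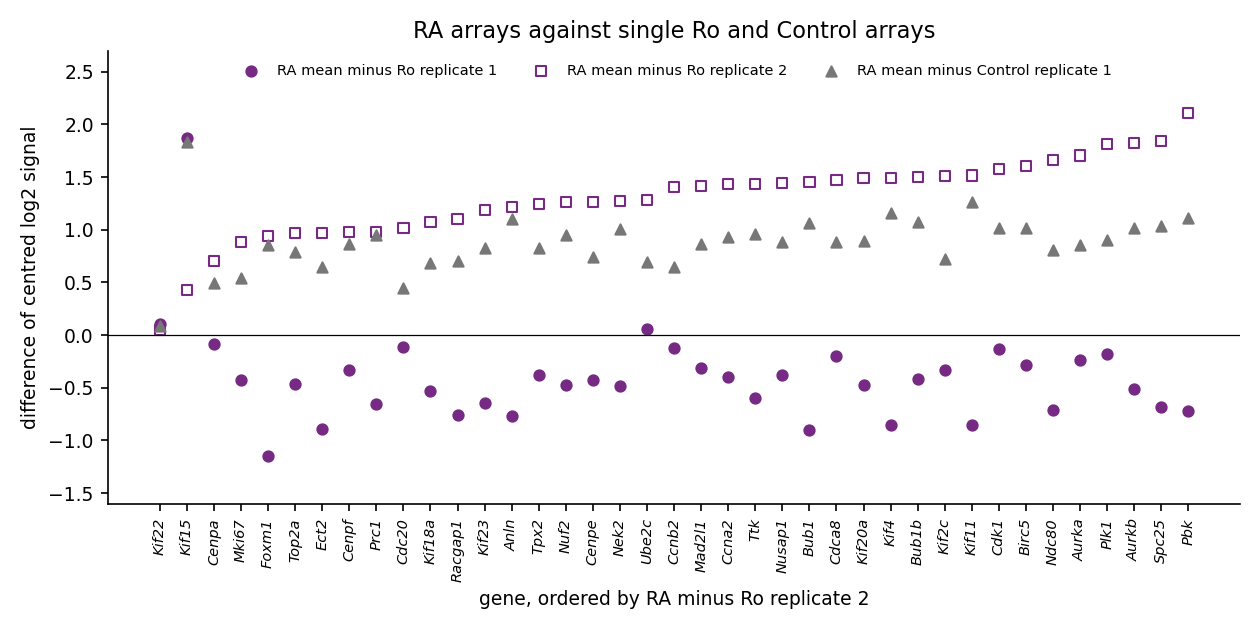
Difference of centred log2 signal between the mean of the RA arrays and Ro replicate 1 (filled circles), Ro replicate 2 (open squares) or Control replicate 1 (triangles), for each of the 39 genes. Differences from Ro replicate 2 and from Control replicate 1 are above 0 for all 39 genes, and differences from Ro replicate 1 are below 0 for 36.

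Against Control the RA arrays were higher. All 39 genes had a higher mean in RA, with a median log2 difference of 2.14 against 0.13 over all genes tested. Each RA array exceeded each Control array for 38 of 39 genes, against 25.5% of genes tested. Kif22 was the exception. The differences ran from 1.18 for Kif15 to 2.92 for Cenpf. With the mean of all its probe sets Cenpf stood at 2.06. The median became 0.88 when Control replicate 2 was left out and 3.38 when Control replicate 1 was. All 39 genes were higher in RA in both cases.

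With all 6 arrays in the limma fit, 0 of 38 genes and 0% of probe sets passed an adjusted p of 0.05 for RA against Control, and 18 of 38 had an unadjusted p under 0.05, against 2.46% of all probe sets. The limma differences were 2.24 (SE 0.86) for Bub1b, 2.10 (SE 0.93) for Aurkb, 1.98 (SE 0.89) for Mki67, 1.94 (SE 0.75) for Cdk1, 1.74 (SE 0.83) for Cdc20, 1.66 (SE 0.78) for Foxm1 and 1.50 (SE 0.60) for Top2a, all with an adjusted p of 0.864. Cenpf had 2.92 (SE 1.19) and the same adjusted p. With Control replicate 1 left out, limma called 33 of 38 genes, all higher in RA, where 7.56% of 28930 probe sets were called and higher. In that fit the spread comes from RA and Ro alone, and the single Control array is taken to vary as they do. With Control replicate 2 left out 0 were called.

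Ro against Control gave a like median and more overlap. All 39 genes had a higher mean in Ro, with a median log2 difference of 1.70, against 0.25 over all genes tested. For 0 of 39 genes did both Ro arrays lie above both Control arrays, against 35.9% of genes tested, since Ro replicate 2 lay below Control replicate 1 for most of them. The differences ran from 0.03 for Kif15 to 2.59 for Cenpf (SE 1.19, limma adjusted p = 0.520). With the mean of all its probe sets Cenpf stood at 1.47. The median was 0.41 without Control replicate 2, 2.86 without Control replicate 1, 0.80 without Ro replicate 1 and 2.61 without Ro replicate 2.

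The limma fit called 0 of 38 genes between Ro and Control and 0% of probe sets. At an unadjusted p under 0.05 it gave 1 of 38, Prc1, against 8.54% of all probe sets. Log2 differences were 1.77 (SE 0.78) for Foxm1, 1.75 (SE 0.89) for Mki67, 1.70 (SE 0.86) for Bub1b, 1.44 (SE 0.93) for Aurkb, 1.29 (SE 0.83) for Cdc20, 1.25 (SE 0.60) for Top2a and 1.22 (SE 0.75) for Cdk1, with limma adjusted p values from 0.520 to 0.560. Without Control replicate 1 limma called 30 of 38 genes, all higher in Ro, where 13.4% of probe sets were called and higher, and without Control replicate 2 it called 0. Both comparisons share the Control arrays, so their likeness is not independent. Control replicate 2 also differs from the rest in Xist and Eif2s3y and in its culture label. Control replicate 1 differs from the RA and Ro arrays in Xist, at 680 against 13.1 to 22.7. The part of these features in the comparisons with Control was not tested and cannot be told apart from that of group.

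Other genes of the cell cycle were taken from lists set up by function. Of 62 further mitotic genes 61 were measured, and they followed the same arrays, with a median of -2.02 relative to their own means on Control replicate 2, 1.26 on Ro replicate 1 and -0.66 on Ro replicate 2. In limma 0 of 61 passed in each comparison. At an unadjusted p under 0.05 there were 0 of 61 for RA against Ro, 19 for RA against Control (2.46% of all probe sets) and 3 for Ro against Control (8.54%). Oip5, which takes part in the loading of Cenpa onto centromeres, had signals of 102 and 24.7 on Control, 279 and 163 on RA, and 182 and 36.7 on Ro. Troap, a spindle protein, had 144 and 14.8, 296 and 88.8, and 107 and 54.9. Smc4, a condensin subunit, departed from the order, with 5479 and 978 on Control, 4788 and 4267 on RA, and 5217 and 5410 on Ro.

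DNA replication and S phase genes shared the gap within Ro but less of the low level on Control replicate 2. The median gap between Ro replicates 1 and 2 was 1.75 log2 units over 44 measured genes, with all 44 higher on replicate 1. Between the Control replicates it was 0.26, with 29 of 44 higher on replicate 1, against 2.48 for the mitotic genes. In limma 0 of 44 passed in each comparison. At an unadjusted p under 0.05 there were 0 for RA against Ro, against 2.03% of all probe sets. For RA against Control there were 2 (2.46%) and for Ro against Control 5 (8.54%). Tk1, thymidine kinase, had signals of 366 and 165 on Control, 916 and 647 on RA, and 1496 and 148 on Ro. Tyms, thymidylate synthase, stood at 218 on Ro replicate 1 and at 26.3 to 58.1 elsewhere. Pcna, the replication clamp, varied little, from 4070 to 6895. The difference between the lists was not tested.

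Regulators of G1 phase did not take the common order. Over 16 genes the medians relative to their own means lay between -0.28 and 0.39, and Control replicate 2 stood at 0.25. They shared part of the gap within Ro, with a median of 0.54 log2 units and 14 of 16 higher on replicate 1. Ro replicate 1 was the highest array for 9 of the 16, against 22.1% of genes tested. Between the Control replicates the median gap was -0.70, with 6 of 16 higher on replicate 1. Ccnd2, cyclin D2, was highest on Control replicate 2, at 5832, with 3289 on the other Control array and values from 2349 to 3585 for RA and Ro. E2f1, the factor that starts S phase transcription, stood at 182 on Ro replicate 1 and at 68.4 to 81.1 on the other arrays. Rbl1, the pocket protein p107, had 558 and 157 on Control, 715 and 780 on RA, and 1606 and 804 on Ro. CDK inhibitors and quiescence genes had a median of -0.93 on Control replicate 2 over 20 genes and were otherwise between -0.02 and 0.29. Cdkn1c stood at 23.5 on that array and 34.9 to 88.2 elsewhere, and Cdkn2a at 1.17 and 6.86 to 40.8. Control replicate 2 was the lowest array for 15 of the 20. Cdkn1a, which encodes the inhibitor p21 and was chosen after its values were seen, went the other way, with 2250 on that array and 210 to 1199 elsewhere. Btg1, an antiproliferative gene, had 3674 to 5900. The median of this list was thus lowest on the same array as that of the mitotic genes. In limma 0 of the 16 and 0 of the 20 passed in each comparison. At an unadjusted p under 0.05 there were 0 of each for RA against Ro, 1 of each for RA against Control (2.46% of all probe sets), and 2 of 16 and 4 of 20 for Ro against Control (8.54%).

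The machinery that mitotic genes act on varied less. Over 15 genes of the anaphase-promoting complex the medians lay between -0.37 on Control replicate 2 and 0.36 on Ro replicate 1, and Anapc5 stood at 1604 to 3618. Anapc1 had 260 on Control replicate 2 and 471 to 832 elsewhere, and Cdc27 156 and 294 to 623. Over 10 genes of cohesin, the ring that holds sister chromatids, the median was -0.90 on Control replicate 2 and 0.60 on Ro replicate 1. Rad21, its cleavable subunit, stood at 232 and 901 to 1750, Smc3 at 317 and 642 to 1191, and Nipbl, the cohesin loader, at 856 and 1109 to 1917. Reference genes of general cell function went the other way on Control replicate 2, with a median of 0.60 over 11 measured genes. Rps18 stood at 16320 there and 8976 to 10480 elsewhere, while Polr2a was lower there, at 435 against 678 to 1844, as was Ywhaz, at 1759 against 2284 to 3387. In limma 0 genes of these 3 lists passed in each comparison, and for RA against Ro 0 had an unadjusted p under 0.05. Of the 10 cohesin genes, 7 had one for Ro against Control (8.54% of all probe sets) and 3 for RA against Control (2.46%). For Ro against Control it was 3 of the 15 genes of the anaphase-promoting complex and 1 of the 11 reference genes, and for RA against Control 0 of both.

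**Figure D4:**
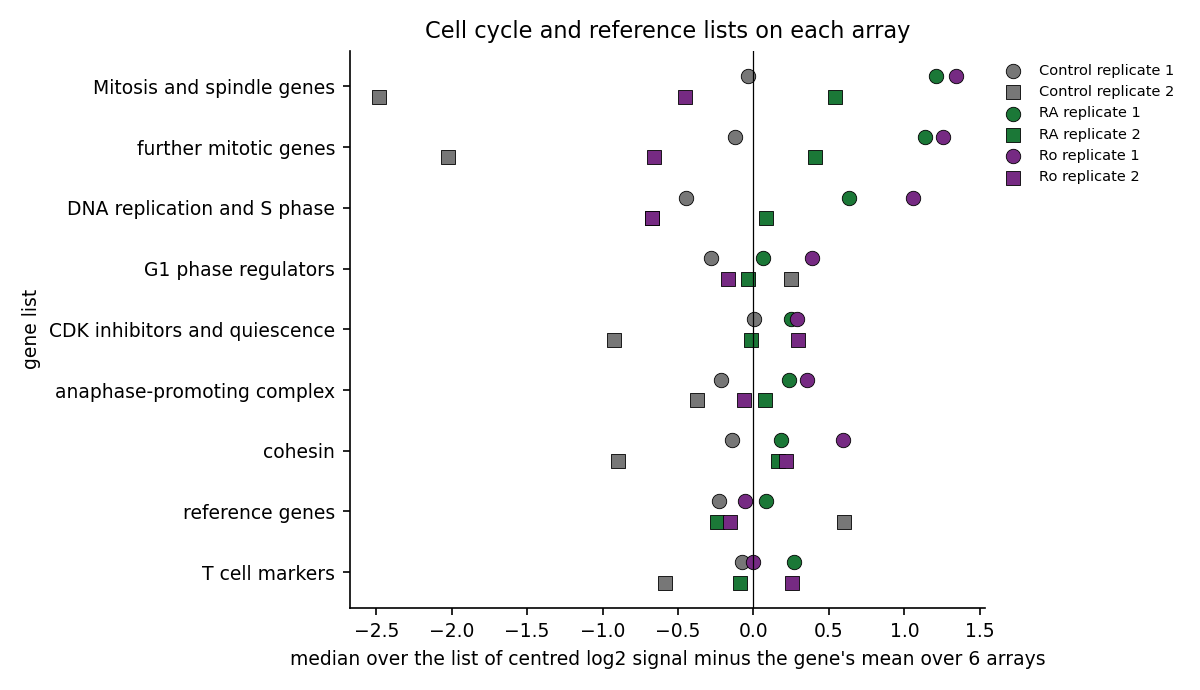
Median over each list of the centred log2 signal minus the gene's own mean over the 6 arrays (x axis), for each array (colour: group, circle: replicate 1, square: replicate 2). The mitotic lists span from below -2 on Control replicate 2 to above 1 on Ro replicate 1, whereas G1 regulators stay between -0.28 and 0.39.

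Markers of the labelled cells and of others were read on the same arrays. T cell markers were present throughout: 11 of 12 were measured, Cd3d stood at 6059 to 7512 and Cd2 at 3695 to 5000. The 11 were not even across arrays. Control replicate 2 was the lowest for 6 of them, against 38.7% of genes tested, with a median of -0.59 relative to their own means. Thy1, chosen after its values were seen, was highest there, at 7555 against 3542 to 4675. Cd4 stood at 463 on Control replicate 2 and 1141 to 1791 on the others. The summed signal of the 9 mast cell and basophil markers was 3916 and 171 on Control, 1607 and 1371 on RA, and 5984 and 3833 on Ro, and that of the 9 myeloid markers was 2005 and 183, 627 and 613, and 1378 and 531. Both sums were thus lowest on Control replicate 2, as the mitotic genes were. Mcpt8 had 1955 and 6.72 on Control and 594 to 2599 on RA and Ro, Cma1 3.30 on Control replicate 2 and 33.9 to 518 elsewhere, and Lyz2 1287 and 9.57 on Control and 161 to 622 on the others. Control replicate 2 was the lowest array for 6 of the 9 mast cell and basophil markers and 5 of the 9 myeloid ones, against 38.7% of genes tested. Kit and Itgax, chosen after their values were seen, were highest there. Kit stood at 120 against 25.1 to 104, and the myeloid marker Itgax at 30.1 against 16.1 to 26.3. Lyz2 alone gave 1287 of the myeloid sum of 2005 on Control replicate 1. The 6 measured NK cell markers summed to 2179 on Control replicate 2 and 313 to 1156 elsewhere, and Klrd1 alone gave 2060 of the 2179. Eomes went the other way, with 20.7 on that array and 76.2 to 240 elsewhere. The 7 measured B cell markers summed to 94.9 to 172, the 2 CD8 markers to 74.7 to 184, and the 4 measured erythroid markers to 7.85 to 30.6. The part of these cells in the mitotic pattern was not tested.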

How the data were processed

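Each deposited value is the linear signal intensity of a probe set. Per the submitters' processing notes the authors used MAS5, with version and scaling target not given in the sources used here. Groups and replicate numbers came from the sample titles, where the third group is written Ro and RO. Gene symbols came from the platform annotation in GEO (34958 probe sets with 1 symbol, 932 with several, 9211 with none). The 64 control probe sets were left out. Signals were turned into log2(signal + 2.999), with the 20th percentile of all values as pseudocount, which shrinks differences of dim genes, and each array was centred on its median.

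Testing was limited to the 29531 probe sets whose signal exceeded the array's 40th percentile on 2 or more arrays. Differences were tested with limma 3.58.1 in R 4.3.3 (lmFit and eBayes with an intensity trend, all 6 arrays, 3 residual degrees of freedom, no block), two-sided, with Benjamini-Hochberg adjustment over all probe sets tested at 0.05, after the code had been tested on simulated data. That check required changed probe sets to be called only at a spread smaller than the real one. It does not show that such changes would be called on these arrays. No p-value was computed over the list of genes.

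The genes, lists and tests were chosen with earlier results of these data known. Each comparison gives limma values for Foxm1, Cdk1, Aurkb, Bub1b, Cdc20, Top2a and Mki67 and for the largest and smallest difference, and up to 3 genes are named per other list, by the largest difference between RA and Ro and the highest signal; other genes were chosen after their values were seen. Tables were read with Python 3.11.15.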

Additional observations from a re-analysis of the deposited data

How the results depend on the processing

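With 2 arrays a group, the widths given are those of single arrays, and probe sets near the background, such as that of Kif15, carry no order. Of 138 alternative values for the counts of calls, the medians and the numbers of genes higher, 130 kept their direction and moved by less than the spread between replicates (medians) or stayed within the tolerance for counts. That spread is wide, 1.27 log2 units, so medians among the 130 still moved: RA against Control was 0.88 without Control replicate 2, and RA against Ro 0.11 without RA replicate 1. Some medians and numbers of genes higher among the 130 could not move. The means compared are the same without the filter, with a replicate block, in a 2-group fit or without a third-group array. Leaving out single arrays moved the count of probe sets called by limma from 0 to between 0 and 5 for RA against Ro, between 0 and 3361 for RA against Control and between 0 and 5182 for Ro against Control. A fit of the 4 RA and Ro arrays alone called 8 probe sets, none of them of the mitotic genes. The median over the genes ran from -0.43 to 1.40 for RA against Ro and from 0.41 to 2.86 for Ro against Control, and the number higher in RA than in Ro from 3 to 39. For single genes between RA and Ro the ranges were -1.15 to 0.94 for Foxm1, -0.13 to 1.58 for Cdk1, -0.51 to 1.82 for Aurkb, -0.42 to 1.50 for Bub1b, -0.11 to 1.02 for Cdc20, -0.47 to 0.97 for Top2a and -0.43 to 0.88 for Mki67, and Cdc20 ran from -0.0036 to 2.59 between Ro and Control. With quantile normalization Foxm1 stood at 0.10 between RA and Ro. The cause of these turns was not tested beyond the arrays left out.

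The median over the genes for RA against Ro was 0.34 without centring, 0.62 with quantile normalization, 0.38 with the pseudocount at the median of all values and 0.48 with the mean of all probe sets of a gene. For RA against Control the same settings gave 2.11, 1.92, 1.97 and 1.92. For Ro against Control they gave 1.76, 1.37, 1.61 and 1.37. With the replicate number as a replicate block, limma called 0 probe sets in each comparison. The medians stayed at 0.43, 2.14 and 1.70, because a balanced block cannot change differences of group means. Over all probe sets tested the same-numbered arrays deviated together between RA and Ro (correlation 0.249). They did not between Control and RA (0.00500) or Control and Ro (-0.0290), so the numbers were not taken to pair the arrays of all groups. No fit of the RA and Ro arrays alone used this pairing, so its effect on RA against Ro was not tested.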

Other observations

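Genes outside the list whose promoter window holds a CCAAT 20 to 45 bases upstream of a cell cycle homology region match had smaller gaps than the mitotic genes. Over 108 such tested genes the median log2 difference was 0.37 between the Control replicates and 0.26 between the Ro replicates, against -0.03 and -0.02 over 10344 tested genes without that spacing. Their median difference of RA minus Control was 0.44, against 0.13. Among the mitotic genes, those with both motifs (22) and those with 1 or none (11) had medians of 2.54 and 2.72 between the Control replicates and 1.77 and 1.76 between the Ro replicates. The spacing was chosen after the matches had been seen, and no test was run on these medians.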
